A study of Mus musculus with 6 samples.

Results

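The genes examined here were 9 genes of the adherens junction, the cell contact built on classical cadherins, chosen by symbol from the 23238 symbols of the count files. They were the cadherin genes Cdh1, Cdh2 and Cdh3, the catenin genes Ctnna1, Ctnna2, Ctnnb1, Ctnnd1 and Ctnnd2, and the adhesion gene Epcam. All 9 symbols were found, each on 1 line of every file, and VE-cadherin was not included. The RNA was from stable lines of mouse embryonic stem cells (strain 129/Ola) that the labels call Niwa. The control line expressed EGFP and the experimental line EWS-OCT4A joined to GFP, in which the Ewing sarcoma protein EWS is fused to OCT-4 of isoform A, and each was sequenced in 3 libraries. Both lines were grown in embryonic stem cell medium with LIF, and both received doxycycline at 1 µg/ml to lower their own OCT-4. Whether a line was 1 clone is not given in the sources used here, and no library without doxycycline was analysed here. In what follows, "fell" and "lower" therefore compare the EWS-OCT-4 line with the EGFP line and not with cells before doxycycline.

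Classical cadherins are transmembrane proteins whose outer domains bind the same cadherin on the next cell and whose tails hold catenins. Beta-catenin and its relatives bind the end of the tail, alpha-catenin links beta-catenin to actin, and the delta-catenins, of which p120-catenin is the best known, bind closer to the membrane and keep cadherin at the surface. E-cadherin holds mouse embryonic stem cell colonies together, and beta-catenin also carries WNT signals to the nucleus. EpCAM is a separate type of adhesion molecule found on embryonic stem cells and many epithelia.

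The libraries held 10978025 to 14935887 counts, so that 1 count stood for 0.0650 to 0.0923 CPM, the depth-scaled level used here (scaled between libraries by TMM). The ribosomal RNA precursor Rn45s took 5.85% to 6.44% of the counts of EGFP libraries and 7.36% to 10.5% of those of EWS-OCT-4 libraries. In each line the library numbered 3 stood apart from the other two, where the chi-square for each degree of freedom was 25.3 and 26.8 among EGFP libraries and 34.0 and 34.2 among EWS-OCT-4 libraries, against 3.96 and 4.17 between numbers 1 and 2. The labelled cell type was checked with 8 markers of embryonic stem cells, whose summed level was 311.5 to 392 CPM in the EGFP libraries and 4835 to 5411 CPM in the EWS-OCT-4 libraries, and all 8 were called higher in the EWS-OCT-4 line. The 9 trophoblast markers summed to 4725 to 5335 CPM in the EGFP libraries and 247 to 270.9 CPM in the EWS-OCT-4 libraries, all 9 were called lower, and Plac1 had no count in the EWS-OCT-4 line. Primitive endoderm markers summed to 100.4 to 121.8 CPM and 5.54 to 6.54 CPM in the EGFP and EWS-OCT-4 lines, fibroblast markers to 5.52 to 10.35 CPM and 20.4 to 27.2 CPM, and neural progenitor markers to 10.7 to 14.9 CPM and 50.9 to 75.8 CPM. In that order 2, 1 and 1 of their 3, 5 and 3 tested genes were called lower and 1, 1 and 2 higher, and Neurog2 had no count in either line. Of the fibroblast markers, named after their values were seen, Thy1 was called higher (0.636 to 17.9 CPM) and Pdgfra lower (2.84 to 0.0307 CPM), while Col1a1, Col1a2 and Col3a1 overlapped between the lines and did not pass. The part of these markers in the results below was not tested. Fewer cells of a type and less RNA per cell cannot be told apart in such libraries. No label ties the 3 libraries of a line to separate cultures, and p-values therefore measure only how these samples vary among themselves, which can be technical variation.

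Of the 9 genes, 7 were abundant enough to be tested, and 6 of them were lower in the EWS-OCT-4 line at an adjusted p under 0.05 by edgeR's quasi-likelihood test. The largest fall was in the P-cadherin gene Cdh3, followed by the p120-catenin gene Ctnnd1 and by Epcam, while Cdh1, Ctnna1 and Ctnnb1 fell by less than 2-fold. None rose (0 higher also at an unadjusted p under 0.05, by limma-voom and by DESeq2), Ctnnd2 did not pass the test, and Cdh2 and Ctnna2 were too low to be tested. Over all 13467 tested genes, 67.4% were called, 34.1% lower and 33.3% higher. The median log2 fold change of the 7 tested genes was -0.95, against -0.00 over all tested genes. The 3 EGFP libraries lay wholly above the 3 EWS-OCT-4 libraries for 6 of the 7, as they did for 36.7% of all tested genes, and 72.7% of tested genes showed no overlap in either direction. A fall of at least 2-fold was called for 3 of them (Cdh3, Ctnnd1 and Epcam) and for 23.6% of all tested genes.

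**Figure D1:**
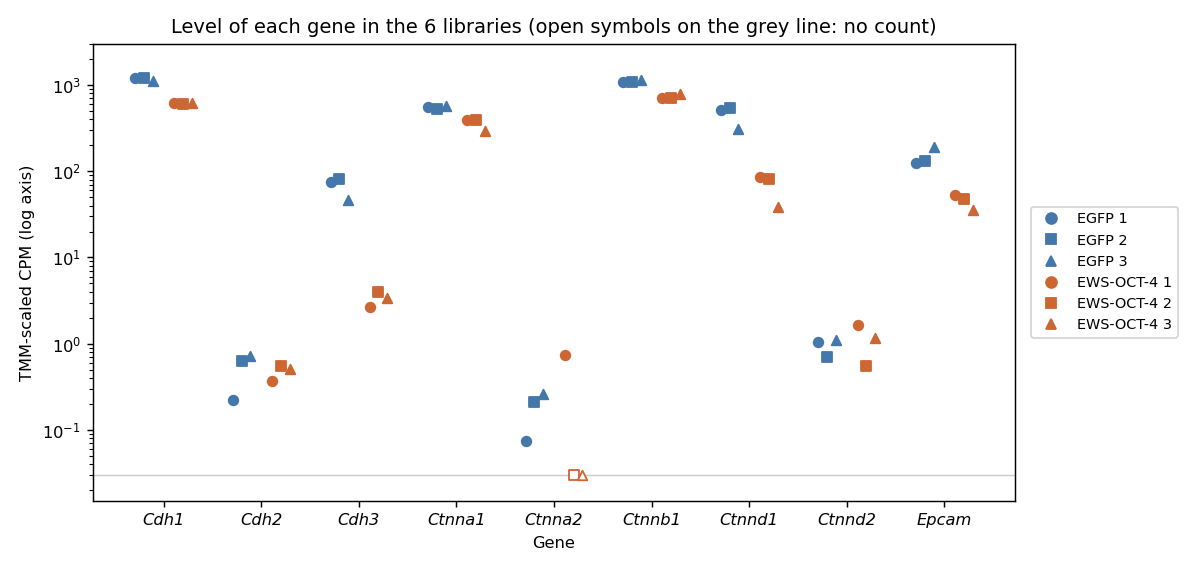
TMM-scaled CPM on a log axis for each gene in each of the 6 libraries, with colour for the line and symbol shape for the replicate number. The EGFP and EWS-OCT-4 libraries are separate for Cdh1, Cdh3, Ctnna1, Ctnnb1, Ctnnd1 and Epcam and overlap for Cdh2, Ctnna2 and Ctnnd2, whose levels lie between 0 and 1.66 CPM.

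Cdh1 encodes E-cadherin, the main cadherin of embryonic stem cells and epithelia. It stood at 1202, 1209.9 and 1105 CPM in EGFP libraries 1, 2 and 3 and at 616, 597 and 612 CPM in EWS-OCT-4 libraries 1, 2 and 3. All 3 EGFP libraries were high, all 3 EWS-OCT-4 libraries were low, and the groups did not overlap. The level went from 1172 ± 58.0 to 608 ± 9.81 CPM (SD, n = 3), a log2 fold change of -0.95 (SE 0.10, adjusted p = 2.3e-05), or 1.93-fold lower. A larger fall than that of Cdh1 was measured in 25.5% of tested genes. Cdh1 thus was still at 597 to 616 CPM in the EWS-OCT-4 line.

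Cdh3 encodes P-cadherin, named for the placenta, where it is abundant. It stood at 74.8, 80.9 and 47.0 CPM in EGFP libraries 1, 2 and 3 and at 2.67, 3.97 and 3.35 CPM in EWS-OCT-4 libraries 1, 2 and 3. EGFP library 3 was the lowest of its line and still far above every EWS-OCT-4 library. The level went from 67.6 ± 18.1 to 3.33 ± 0.648 CPM (SD, n = 3), a log2 fold change of -4.34 (SE 0.26, adjusted p = 4.3e-07), or 20.2-fold lower. The EWS-OCT-4 values rest on 29, 43 and 40 counts, and 3.88% of tested genes had a larger fall.

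Cdh2 encodes N-cadherin, the cadherin of neural and mesenchymal cells. EGFP libraries 1, 2 and 3 held 3, 9 and 11 counts of it, and EWS-OCT-4 libraries 1, 2 and 3 held 4, 6 and 6, or 0.523 ± 0.263 and 0.475 ± 0.0956 CPM (SD, n = 3). The libraries of the lines overlapped, and all of them were under the level of about 0.784 CPM that the filter asks for, so the gene was not tested. The depth-scaled ratio of the EWS-OCT-4 to the EGFP line was 0.892, with an exact 95% interval of 0.440 to 1.76 that covers counting error only. A difference inside that interval was not detectable at this depth. Cdh2 lies on chromosome 18 (16588877 to 16809246, minus strand).

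Cdh3 and Cdh1 are neighbours on chromosome 8. In GENCODE M21 (GRCm38, the assembly also called mm10) Cdh3 spans 106510891 to 106557297 and Cdh1 spans 106603351 to 106670246, both on the plus strand. They are 46.1 kb apart, with 2 annotated genes between them. Neither Cdh3 nor Cdh1 overlaps another annotated gene. The ratio of Cdh1 to Cdh3 counts within a library, which does not depend on scaling between libraries, was 16.1, 14.9 and 23.5 in EGFP libraries 1, 2 and 3 and 226.5, 149 and 180.2 in EWS-OCT-4 libraries 1, 2 and 3. The ratio was thus higher in every EWS-OCT-4 library. The mean log2 ratio went from 4.15 ± 0.35 to 7.51 ± 0.30 (SD, n = 3), a difference of 3.36, or 10.2-fold (exact permutation test, 2-sided, p = 0.10, the smallest that 3 libraries against 3 can give, and 0.15 adjusted over the 6 ratios computed). The ratio of Cdh1 to Cdh2 was lower in the EWS-OCT-4 line by 0.97 on the log2 scale, but the lines overlapped (exact permutation p = 0.20, adjusted 0.24) and the ratio rests on the few Cdh2 counts.

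Ctnnb1 encodes beta-catenin. It stood at 1082, 1089 and 1142 CPM in EGFP libraries 1, 2 and 3 and at 704.0, 704.5 and 778 CPM in EWS-OCT-4 libraries 1, 2 and 3. The groups did not overlap, and the library numbered 3 was the highest in each line. The level went from 1104 ± 33.1 to 729 ± 42.8 CPM (SD, n = 3), a log2 fold change of -0.60 (SE 0.11, adjusted p = 5.7e-04), or 1.52-fold lower. On chromosome 9 (120929216 to 120960507, plus strand) a transcript end of Ctnnb1 is overlapped on the opposite strand by Ulk4. The use of strand in the counting is not given in the sources used here. Ulk4 stood at 0.496 ± 0.358 (EGFP) and 1.18 ± 0.543 CPM (EWS-OCT-4). These levels do not show how reads in the shared part were assigned. Any effect of the overlap on the Ctnnb1 counts was not tested. The ratio of Ctnnb1 to Cdh1 counts was 0.900, 0.900 and 1.03 in EGFP libraries 1, 2 and 3 and 1.14, 1.18 and 1.27 in EWS-OCT-4 libraries 1, 2 and 3. It was higher in every EWS-OCT-4 library, by a mean of 0.34 on the log2 scale or 1.27-fold (exact permutation p = 0.10, adjusted 0.15). That p is the smallest that 3 libraries against 3 can give. A difference between the falls of Ctnnb1 and Cdh1 was therefore measured but not established.

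Ctnna1 encodes alpha-E-catenin, which joins the cadherin and beta-catenin complex to actin. It stood at 557, 526 and 573 CPM in EGFP libraries 1, 2 and 3 and at 393, 393 and 295 CPM in EWS-OCT-4 libraries 1, 2 and 3. The groups did not overlap, and EWS-OCT-4 library 3 was the lowest. The level went from 552 ± 24.1 to 360.2 ± 56.7 CPM (SD, n = 3), a log2 fold change of -0.62 (SE 0.13, adjusted p = 0.0022), or 1.53-fold lower. Tested against a change of 1.5-fold in place of no change, neither Ctnna1 (adjusted p = 0.307) nor Ctnnb1 (adjusted p = 0.339) passed. On chromosome 18 (35118859 to 35254779, plus strand) Lrrtm2 lies inside Ctnna1 on the opposite strand, away from its annotated coding transcript ends, at 7.48 ± 1.33 and 5.25 ± 2.79 CPM.

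Ctnna2 encodes alpha-N-catenin, the alpha-catenin of neurons. EGFP libraries 1, 2 and 3 held 1, 3 and 4 counts of it, and EWS-OCT-4 libraries 1, 2 and 3 held 8, 0 and 0, so that every EWS-OCT-4 count was in library 1. It was not tested. Ctnna2 lies on chromosome 6 (76881637 to 77979699, minus strand) and spans 10 other annotated genes, among them Lrrtm1 on the opposite strand, with 3 counts in all 6 libraries. The depth-scaled ratio was 1.28 (exact 95% interval 0.419 to 3.92, counting error only), and without EWS-OCT-4 library 1 no count was left in that line. A count of 0 allows a level of up to 0.277 CPM in EWS-OCT-4 library 2 and 0.252 CPM in EWS-OCT-4 library 3. The ratio of Ctnna1 to Ctnna2 overlapped between the lines (log2 difference 0.17, exact permutation p = 0.90, adjusted 0.90). The value rests on few Ctnna2 counts, and leaving out 1 library gave -0.55 (without EWS-OCT-4 replicate 2) to 1.49 (without EWS-OCT-4 replicate 1), with negative values also without EWS-OCT-4 replicate 3 (-0.42), EGFP replicate 2 (-0.0079) and EGFP replicate 3 (-0.072).

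Ctnnd1 encodes p120-catenin. It stood at 519, 547 and 309.6 CPM in EGFP libraries 1, 2 and 3 and at 86.9, 81.5 and 38.2 CPM in EWS-OCT-4 libraries 1, 2 and 3. The groups did not overlap, and the library numbered 3 was the lowest in each line. Its log2 difference from the mean of numbers 1 and 2 was -0.78 for EGFP and -1.14 for EWS-OCT-4. The level went from 459 ± 129.7 to 68.9 ± 26.7 CPM (SD, n = 3), a log2 fold change of -2.74 (SE 0.31, adjusted p = 3.3e-05), or 6.66-fold lower. A larger fall was measured in 8.20% of tested genes. In the libraries numbered 1 and 2 alone and in each fit that left out 1 library, Ctnnd1 remained called. Ctnnd1 lies on chromosome 2 (84600071 to 84650765, minus strand) and is overlapped on the same strand by the annotated gene Gm28635. The symbol Gm28635 was not found in the count files. Counts in the shared part remain uncertain because the annotation used in the counting is not stated.

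Ctnnd2 encodes delta-catenin, the neural relative of p120-catenin. EGFP libraries 1, 2 and 3 held 14, 10 and 17 counts of it, and EWS-OCT-4 libraries 1, 2 and 3 held 18, 6 and 14, or 0.949 ± 0.218 and 1.13 ± 0.554 CPM (SD, n = 3). The libraries overlapped, and the log2 fold change of 0.25 (SE 0.53, adjusted p = 0.698) did not pass the test. Without EWS-OCT-4 library 1 it was -0.12. Ctnnd2 lies on chromosome 15 (30172593 to 31029341, plus strand). The depth-scaled ratio was 1.19 (exact 95% interval 0.744 to 1.89, counting error only). The ratio of Ctnnd1 to Ctnnd2 counts was 481, 743 and 272 in EGFP libraries 1, 2 and 3 and 51.0, 136 and 31.5 in EWS-OCT-4 libraries 1, 2 and 3, lower in every library of the EWS-OCT-4 line, with a log2 difference of -2.93 (exact permutation p = 0.10, adjusted 0.15). It rests on 6 to 18 Ctnnd2 counts in a library, and without EWS-OCT-4 replicate 2 the difference was -3.52.

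**Figure D2:**
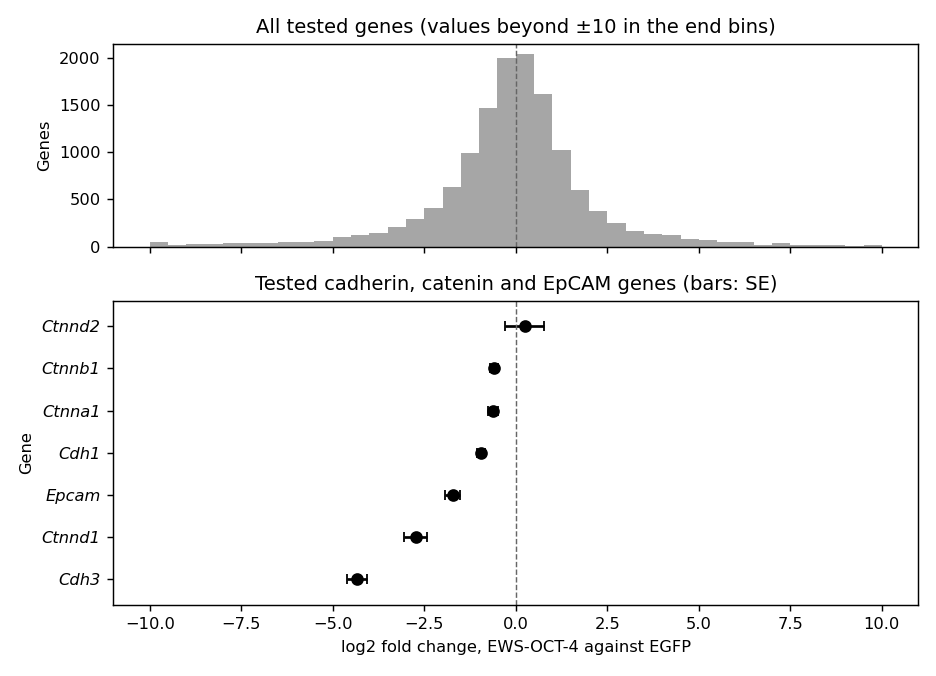
Upper panel, number of tested genes by log2 fold change of the EWS-OCT-4 line against the EGFP line; lower panel, the log2 fold change of the 7 tested genes, with bars for the SE. Cdh3 (-4.34) and Ctnnd1 (-2.74) lie in the left tail of all tested genes, and Cdh1, Ctnna1 and Ctnnb1 lie between -0.95 and -0.60.

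Epcam encodes the epithelial cell adhesion molecule. It stood at 126, 130.2 and 191 CPM in EGFP libraries 1, 2 and 3 and at 52.8, 47.4 and 35.1 CPM in EWS-OCT-4 libraries 1, 2 and 3. The groups did not overlap, and the library numbered 3 was the highest of the EGFP libraries and the lowest of the EWS-OCT-4 libraries. The level went from 149 ± 36.5 to 45.1 ± 9.05 CPM (SD, n = 3), a log2 fold change of -1.72 (SE 0.21, adjusted p = 4.2e-05), or 3.31-fold lower. In the libraries numbered 1 and 2 alone the log2 fold change was -1.33 and the gene was still called. A larger fall was measured in 14.5% of tested genes. The ratio of Epcam to Cdh1 counts was 0.105, 0.108 and 0.173 in EGFP libraries 1, 2 and 3 and 0.0858, 0.0795 and 0.0575 in EWS-OCT-4 libraries 1, 2 and 3, a log2 difference of -0.77 (exact permutation p = 0.10, adjusted 0.15). With only the libraries numbered 1 and 2 the difference shrank to -0.36. Epcam lies on chromosome 17 (87635979 to 87651129, plus strand) and overlaps no other annotated gene.

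**Figure D3:**
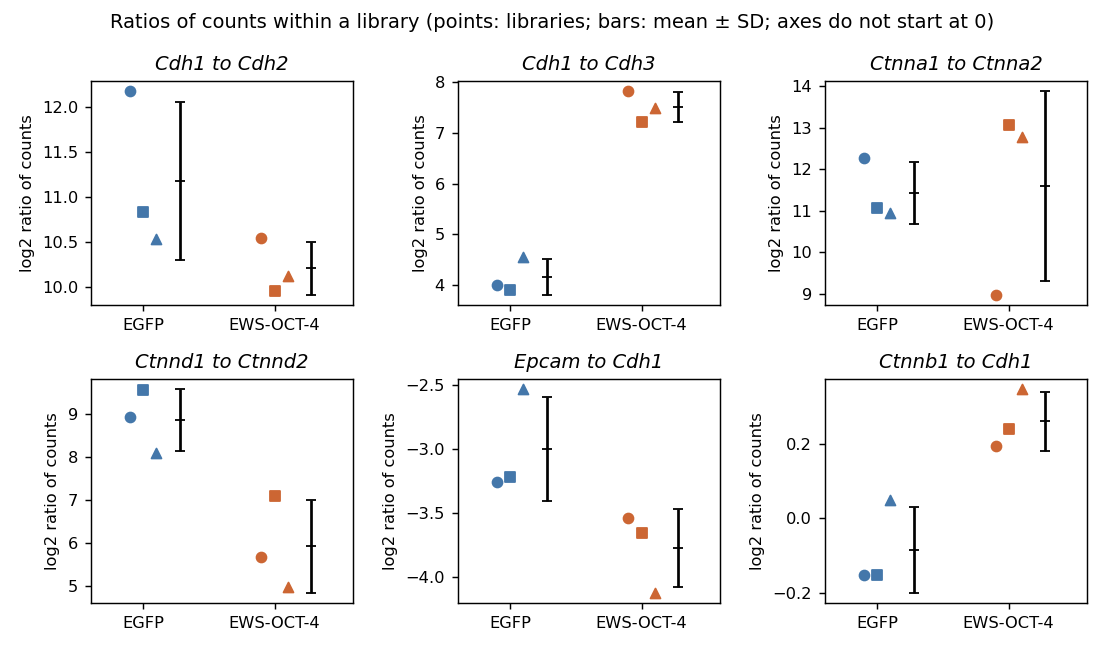
Log2 ratio of the counts of a pair of genes within each library, by line, with the mean and SD beside the points; the axes do not start at 0. The lines are separate for Cdh1 to Cdh3, Ctnnd1 to Ctnnd2, Epcam to Cdh1 and Ctnnb1 to Cdh1, and overlap for Cdh1 to Cdh2 and Ctnna1 to Ctnna2.

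Promoter windows of 300 bases, from 250 before to 50 after a transcription start in RefSeq (GRCm38.p6), were matched by symbol for 5 of the 9 genes, in 7 windows. Cdh1, Cdh2, Cdh3 and Ctnna1 had none. The windows of Epcam and Ctnnd1 are shown because these are the genes with a window that fell by at least 2-fold, and the first of 2 overlapping windows of Ctnnb1 as the gene that fell least of those called with a window. Searched on both strands were CACCTG, the form of the E-box that proteins of the SNAI and ZEB families are known to bind; ACCGGT, the core of the Grainyhead-like binding sequence, which reads the same on both strands; and CCAAT, a general promoter element. Capitals mark every match, written 5′ to 3′ on the gene's strand, so that a match on the other strand reads CAGGTG or ATTGG. No matches to different motifs overlapped in these windows.
Epcam, chr17:87635729-87636028, plus strand: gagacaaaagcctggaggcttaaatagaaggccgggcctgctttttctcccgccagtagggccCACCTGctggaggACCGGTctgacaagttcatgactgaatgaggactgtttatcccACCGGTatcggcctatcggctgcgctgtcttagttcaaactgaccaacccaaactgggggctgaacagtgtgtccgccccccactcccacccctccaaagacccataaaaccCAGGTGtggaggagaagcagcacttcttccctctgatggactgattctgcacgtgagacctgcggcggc
Ctnnd1, chr2:84658928-84659227, minus strand: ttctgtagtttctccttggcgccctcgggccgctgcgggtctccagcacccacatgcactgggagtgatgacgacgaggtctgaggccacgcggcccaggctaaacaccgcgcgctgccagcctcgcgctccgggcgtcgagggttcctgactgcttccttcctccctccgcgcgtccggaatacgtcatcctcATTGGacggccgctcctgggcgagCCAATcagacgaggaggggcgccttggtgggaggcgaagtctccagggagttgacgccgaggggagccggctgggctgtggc
Ctnnd1, chr2:84650691-84650990, minus strand: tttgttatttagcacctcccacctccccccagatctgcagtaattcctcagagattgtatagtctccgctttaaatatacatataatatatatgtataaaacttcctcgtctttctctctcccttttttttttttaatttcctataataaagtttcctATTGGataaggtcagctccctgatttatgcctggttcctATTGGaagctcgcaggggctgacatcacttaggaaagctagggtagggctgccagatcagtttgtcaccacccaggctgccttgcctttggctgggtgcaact
Ctnnb1, chr9:120933150-120933449, plus strand: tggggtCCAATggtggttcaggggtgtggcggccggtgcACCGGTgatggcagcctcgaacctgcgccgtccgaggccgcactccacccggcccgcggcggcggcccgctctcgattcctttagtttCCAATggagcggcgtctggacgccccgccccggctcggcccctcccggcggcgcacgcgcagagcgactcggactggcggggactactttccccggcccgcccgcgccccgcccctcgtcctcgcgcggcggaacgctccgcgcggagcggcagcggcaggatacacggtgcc

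The Epcam window held 2 matches to CACCTG, beginning at -187 and, on the other strand, at -19 from the start site, and 2 matches to ACCGGT, beginning at -174 and -131. Of 32851 windows of the same length, 20.2% held at least 1 match to CACCTG and 2.33% at least 1 match to ACCGGT. Both Ctnnd1 windows held 2 matches to CCAAT, which 37.4% of windows hold, and none to the other motifs. The Ctnnd1 window at chr2:84658928-84659227 lies outside the GENCODE span of Ctnnd1 given above. It lies inside that of Gm28635 (84601439 to 84678041) on the same strand. The Ctnnb1 window shown held 1 match to ACCGGT and 2 to CCAAT, while its other window (chr9:120933328-120933627), not shown, held no match to any of the 3 motifs. The Ctnna2 window held 1 match to CACCTG and the Ctnnd2 window held none of the 3. These matches describe the letters and show no binding.

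Transcription factors known to act on cadherin and EpCAM genes changed in both directions. Of 16 listed, 14 were tested, 5 rose, 8 fell and 1 did not pass, where 33.3% of all tested genes rose and 34.1% fell. The median log2 fold change of the list was -1.82 against -0.00 over all tested genes. Esrp1, a splicing factor of epithelial cells kept in this list as an epithelial regulator, fell from 120 ± 20.2 to 1.24 ± 0.164 CPM (SD, n = 3). Ovol2, a repressor that maintains epithelial identity, fell from 95.1 ± 4.30 to 3.99 ± 2.65 CPM (log2 fold change -4.59, SE 0.42, adjusted p = 6.8e-06). Snai1, a repressor of Cdh1, fell as well, from 23.9 ± 3.26 to 1.82 ± 0.916 CPM (log2 fold change -3.71). Zeb1, another repressor of Cdh1, rose from 6.51 ± 1.08 to 35.5 ± 6.34 CPM (log2 fold change 2.44, SE 0.21, adjusted p = 4.1e-06). Klf4, an activator of Cdh1 and a pluripotency factor, rose from 34.9 ± 1.25 to 319 ± 18.7 CPM (log2 fold change 3.19). Tcf4, which encodes an E-box protein, rose from 56.7 ± 5.79 to 192 ± 43.4 CPM. The Grainyhead-like genes, named after their values were seen because of the motif above, fell from 22.9 ± 2.29 to 3.61 ± 1.10 CPM for Grhl1, from 13.4 ± 1.69 to 2.22 ± 0.545 CPM for Grhl2 and from 7.52 ± 1.33 to 3.63 ± 1.71 CPM for Grhl3. The call of Grhl3 (adjusted p = 0.034) was lost in 3 of 6 leave-one-out fits, with an adjusted p of up to 0.104 without EGFP replicate 2. Any link between the Grainyhead-like genes and the ACCGGT matches in the Epcam and Ctnnb1 windows was not tested.

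Genes that act with EpCAM were lower. Of 9 listed partners and relatives, all tested, 8 fell, none rose and 1 did not pass. The median was -3.41 on the log2 scale, and of all tested genes 34.1% fell and 33.3% rose. The count of listed genes higher was 0 at an unadjusted p under 0.05 too, and 0 by limma-voom and DESeq2. Tspan8, a tetraspanin, fell from 27.6 ± 3.27 to 0.173 ± 0.168 CPM, and its log2 fold change of -7.20 became -8.08 without EWS-OCT-4 replicate 3. These sizes rest on 2, 0 and 4 counts in EWS-OCT-4 libraries 1, 2 and 3. The depth-scaled ratio of EGFP to EWS-OCT-4 was 155 (exact 95% interval 71.05 to 423.5, counting error only). Fhl2, which encodes a LIM protein known to bind the cleaved tail of EpCAM, fell from 32.5 ± 11.3 to 0.654 ± 0.461 CPM.

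Most of the other tested genes of the junction were lower. Of 14 other catenins and adherens junction genes, 13 were tested, 9 fell, 2 rose and 2 did not pass (median -0.99). Among all tested genes 34.1% fell and 33.3% rose. Lima1, which encodes the actin-binding protein EPLIN, fell from 892 ± 140.2 to 153 ± 23.5 CPM (log2 fold change -2.54, SE 0.16, adjusted p = 6.6e-07). Jup, which encodes plakoglobin, the relative of beta-catenin shared with desmosomes, fell from 243 ± 44.4 to 55.5 ± 23.0 CPM (log2 fold change -2.13). Vcl, which encodes vinculin, fell from 131 ± 24.1 to 41.7 ± 3.91 CPM. Pkp4, of the p120-catenin family, rose from 96.7 ± 6.33 to 172 ± 30.3 CPM (log2 fold change 0.83, adjusted p = 5.6e-04), and Ajuba, a LIM protein of the junction, rose from 29.3 ± 6.77 to 52.2 ± 13.2 CPM.

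The nectins, immunoglobulin-type adhesion proteins beside the cadherins, changed in both directions. Of the 6 genes, 2 rose, 2 fell and 2 did not pass (median -0.24), near the shares of all tested genes (33.3% higher, 34.1% lower). Pvrl1 (nectin-1) rose from 12.5 ± 3.88 to 30.5 ± 9.46 CPM and Pvrl3 (nectin-3) from 22.8 ± 1.94 to 46.1 ± 1.40 CPM. Pvr, the poliovirus receptor homologue, fell from 151 ± 35.5 to 24.8 ± 5.77 CPM (log2 fold change -2.61) and Pvrl2 (nectin-2) from 190.1 ± 25.5 to 134 ± 8.31 CPM. Mllt4, which encodes afadin, the actin linker of nectins, was named after its values were seen and stood at 250.5 ± 3.61 and 256 ± 3.52 CPM (log2 fold change 0.03, SE 0.10, adjusted p = 0.781).

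Other classical cadherins were scarce in both lines. Of 14 genes, 12 were too low to be tested, 8 were without a count in all EGFP libraries and 5 in all EWS-OCT-4 libraries. Cdh22, a cadherin described in brain, held 1, 0 and 1 counts in EGFP libraries 1, 2 and 3 against 63, 55 and 62 in EWS-OCT-4 libraries 1, 2 and 3. The depth-scaled ratio was 115 (exact 95% interval 31.5 to 959.9, counting error only; adjusted p = 7.2e-06). Cdh4, the R-cadherin gene, named after its values were seen as the other tested gene, stood at 6.35 ± 0.803 and 4.47 ± 0.346 CPM (log2 fold change -0.50, adjusted p = 0.121) and did not pass.

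Genes that degrade beta-catenin and genes that act with it in the nucleus were counted in the same fit. Of 10 turnover genes, 5 fell, 1 rose and 4 did not pass (median -0.64), where 34.1% of all tested genes fell and 33.3% rose. Without EWS-OCT-4 replicate 3 there were 2 turnover genes called higher. Gsk3b, the kinase that marks beta-catenin for destruction, fell from 272 ± 6.57 to 106 ± 7.37 CPM (log2 fold change -1.35, SE 0.11, adjusted p = 3.3e-06). The scaffold gene Axin1 fell from 69.1 ± 6.31 to 41.3 ± 2.57 CPM. Amer1, a membrane adaptor of the same complex, rose from 6.71 ± 2.32 to 30.5 ± 3.77 CPM. Apc2 fell from 1.70 ± 0.837 to 0.394 ± 0.240 CPM (adjusted p = 0.0136), a call lost in 2 of 6 leave-one-out fits, with an adjusted p of up to 0.0786 without EGFP replicate 2.

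Of 8 TCF/LEF factors and co-activators, 7 were tested, 3 rose, 2 fell and 2 did not pass (median 0.49). Among all tested genes 33.3% rose and 34.1% fell. Tcf7l1, the main repressive TCF of embryonic stem cells, fell from 474 ± 17.8 to 217 ± 20.5 CPM (log2 fold change -1.12). Bcl9l, which encodes a co-activator that binds beta-catenin, fell from 214 ± 17.3 to 19.3 ± 3.11 CPM (log2 fold change -3.47, SE 0.16, adjusted p = 7.0e-08). Pygo1 and Pygo2 encode partners of BCL9 proteins. Pygo1 rose from 0.161 ± 0.0294 to 2.00 ± 0.286 CPM and Pygo2 from 77.4 ± 1.20 to 115 ± 5.96 CPM. Tcf7l2 rose from 91.3 ± 14.8 to 128 ± 14.4 CPM (adjusted p = 0.0142), a call lost in 2 of 6 leave-one-out fits, with an adjusted p of up to 0.0726 without EGFP replicate 1.

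Genes for shedding, endocytosis and turnover of cadherin or EpCAM were lower where they were called. Of 16 genes, 12 fell, none rose and 4 did not pass (median -1.19), while without EWS-OCT-4 replicate 3 there was 1 gene called higher. With all 6 libraries, 0 were higher at an unadjusted p under 0.05, by limma-voom or by DESeq2. Bace1, which encodes a membrane protease known to cleave EpCAM, fell from 159 ± 17.9 to 19.8 ± 2.03 CPM (log2 fold change -3.01, SE 0.15, adjusted p = 1.3e-07). Src, whose kinase acts on cadherin complexes, fell from 63.95 ± 6.90 to 8.57 ± 2.50 CPM (log2 fold change -2.90). Bace2, a relative of Bace1, summed to 89 counts over the EGFP libraries and 3 over the EWS-OCT-4 libraries. The depth-scaled ratio of EGFP to EWS-OCT-4 was 23.1 (exact 95% interval 7.67 to 114, counting error only). All 3 of those counts were in EWS-OCT-4 replicate 1, and without it Bace2 was at least 7.97-fold lower against a floor of 3 counts per library. Over all 8 lists, 77 of 93 genes were tested, and 46 fell, 14 rose and 17 did not pass. The background for this list and for all 8 was 67.4% of all tested genes called, 34.1% lower and 33.3% higher.

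**Figure D4:**
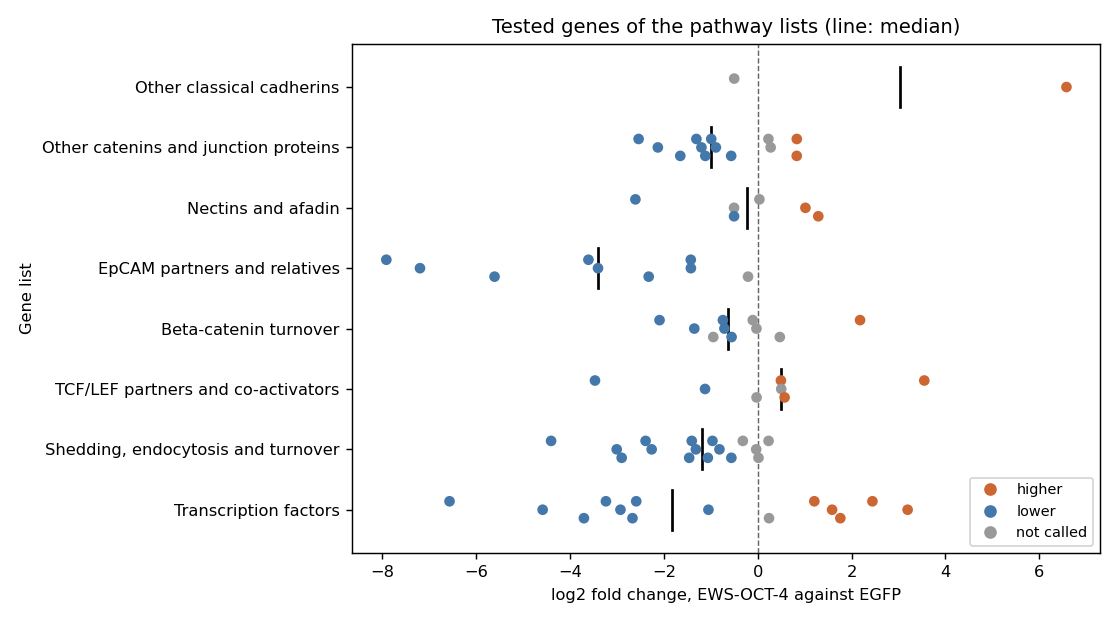
Log2 fold change of each tested gene in the 8 lists around cadherins, catenins and EpCAM, coloured by call, with a black line at the median of each list. The EpCAM partners (median -3.41) and the shedding and turnover genes (median -1.19) hold no gene called higher with all 6 libraries. The transcription factors hold 5 higher and 8 lower. Of all tested genes, 33.3% were called higher and 34.1% lower.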

How the data were processed

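RNA taken up in Trizol was made into libraries with the QuantSeq kit of Lexogen, a method for 3′ ends of transcripts, from 500 ng of total RNA per the labels' protocols. The submitters' processing notes name Bowtie2, edgeR and mm10, without versions or roles, while how reads were counted, with which annotation and strand setting, is not stated there or in the labels. The deposited values are whole-number counts per gene symbol. Symbols on several lines (35, none of the 9 genes) were summed. TMM scaling in edgeR 4.0.16 (R 4.3.3) was followed by filterByExpr (minimum count 10, total 15) and edgeR's quasi-likelihood test between the lines, robust and 2-sided, with Benjamini-Hochberg adjustment over 13467 genes at 0.05. The SE is the log2 fold change divided by the square root of F. Library depth was 10978025 to 14935887 counts. Ratios within a library used counts plus 0.5 and an exact permutation test. Alternatives were leaving out each library, numbers 1 and 2 alone, a replicate block, other scalings and filters, limma-voom (limma 3.58.1), DESeq2 1.42.0, a 1.5-fold threshold and an adjusted p of 0.01. The genes and lists were chosen with earlier results of these data known. Named from each list were the called genes with the largest change, up to 3 in each direction, and others are marked. A gene that this rule would name is not reported here. Positions are from GENCODE M21, and promoter sequences from RefSeq.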

Additional observations from a re-analysis of the deposited data

How the results depend on the processing

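In all 16 alternatives of the gene test, Cdh1, Cdh3, Ctnnd1 and Epcam stayed called lower, with log2 fold changes of -0.99 to -0.90, -4.55 to -4.20, -2.95 to -2.44 and -1.85 to -1.33. Ctnna1 and Ctnnb1 stayed called lower in 15 of 16. Tested against a 1.5-fold change, which leaves the fold changes at -0.62 and -0.60, neither passed. That test called 4 of the 9 genes in place of 6, and 6399 of all 13467 tested genes in place of 9073. Ctnnd2, not called in the 15 alternatives that tested it, ranged from -0.12 to 0.57 when 1 library was left out. With nothing added to the counts, which left 1 EWS-OCT-4 library, the log2 ratio of Ctnna1 to Ctnna2 differed by -2.70, and in the libraries numbered 1 and 2 alone that of Epcam to Cdh1 differed by -0.36. Deviations from the line mean were correlated between the lines by 0.047, 0.064 and 0.16 for libraries numbered 1, 2 and 3. Between numbers 1 and 2 the correlations were 0.087 and 0.092, so these numbers did not pair libraries. Between number 3 and numbers 1 or 2 they were -0.118 to -0.099, so the libraries numbered 3 deviated weakly in a shared direction. With a replicate block 6 of the 9 genes and 8968 of all genes were called, against 9073. Called list genes held in every leave-one-out fit for 56 of 60, the others being Spint2, Apc2, Tcf7l2 and Grhl3. Depth limits Cdh2, Ctnna2 and Ctnnd2, where 1 count was worth 0.0650 to 0.0923 CPM.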

Other observations

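For 3 of the genes, the genes with the most similar profile were sought among 8915 tested genes whose mean was 10 CPM or more, by the root mean square difference of centred log2 CPM over the 6 libraries. The measure is a description, since all profiles share the contrast between the lines. Nearest to Cdh1 were Med4, a Mediator subunit (difference 0.031, from 67.6 ± 5.17 to 35.9 ± 0.767 CPM), Krcc1 (0.0362) and Pak2, a kinase regulated by small GTPases (0.0382). Nearest to Cdh3 were Arhgef16, an exchange factor for small GTPases (difference 0.13, from 167 ± 26.4 to 8.37 ± 1.11 CPM), Smpd1, the acid sphingomyelinase gene (0.15), and AI661453 (0.171). Nearest to Epcam were Sox4, a transcription factor (difference 0.0733, from 81.6 ± 21.1 to 26.5 ± 4.34 CPM), Rnpep, an aminopeptidase gene (0.0986), and Ncoa4, a receptor for ferritin turnover (0.101).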
